A study of Mus musculus with 8 samples.

Results

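The FOXA factors are the forkhead transcription factors Foxa1, Foxa2 and Foxa3. They were taken here as every probe set whose platform symbol is exactly one of those names. Each gene had a single probe set, so the family comprised 3 of 45101 probe sets and 3 of 18193 genes. The genes were chosen by their signals on these same arrays, which differ between the stages in unlike ways, so their stage differences are given below as a description, without a test.

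FOXA proteins bind DNA through a winged-helix forkhead domain and are known as pioneer factors, because they can reach their sites in compacted chromatin and open it for other factors. They are known for their roles in endoderm and its organs, above all liver, lung and pancreas. In the early mouse embryo Foxa2 is known from visceral endoderm, node and floor plate, and Foxa1 and Foxa3 follow in definitive endoderm. FOXA1 also opens chromatin for nuclear receptors in hormone-responsive epithelia.

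RNA of wild-type mouse whole embryos from B6D2F1 females mated with B6D2F1 males was read on 8 one-colour oligonucleotide arrays. Of these, 4 held 8-cell embryos (E2.5, 66 h after hCG, the hormone injected to time ovulation) and 4 held blastocysts (E4.5, 120 h). All embryos had been collected as 1-cell zygotes and cultured in KSOM medium, so no array holds embryos that grew in the mother to these stages. Nothing in the labels tells how many embryos an array holds or whether its RNA was a pool of its own, so the p-values rest on array-to-array spread that could be technical only. Values are the deposited signal in arbitrary units. Stage differences are blastocyst minus 8-cell of log2(signal + 16). Errors are SD for signals (n = 4 a stage) and SE for differences.

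The array medians lay between 47.1 and 56, and the level under which 40% of an array's probe sets lay, used here as the filter on dim genes, was between 28.3 and 35.7. Trophectoderm markers (6 genes) summed to 2910 to 3582 on the 8-cell arrays and to 70739 to 78623 on the blastocyst arrays, primitive endoderm markers (8 genes) to 10352 to 13583 and 33932 to 43330, epiblast markers (6 genes) to 15942 to 19475 and 12740 to 16765, and cleavage-stage markers (5 genes) to 32252 to 39794 and 411 to 666. The trophectoderm, primitive endoderm and cleavage-stage sums differed between the stages without overlap, and the epiblast sums overlapped. Markers of cumulus and granulosa cells (7 genes, 1 to 3 of them above the filter level on an array) summed to 211 to 372 and 193 to 254. Those of oviduct and uterine epithelium (7 genes, 2 to 5 above) summed to 324 to 552 and 231 to 289, and those of blood cells (5 genes, 1 to 4 above) to 153 to 193 and 220 to 400. On whole embryos, fewer cells of a type and less RNA per cell cannot be told apart.

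The RefSeq windows before the annotated starts of the FOXA genes are shown for their letters, since one of them holds the forkhead core itself. All 3 genes matched the RefSeq table (GRCm38.p6), and all lie on the minus strand. Each line gives the 250 bases before a start, 5′ to 3′ along the gene, with matches to the searched motifs in capitals. The windows are chr12:57546112-57546361 for Foxa1, chr2:148046970-148047219 for the outermost of 3 Foxa2 starts and chr7:19023540-19023789 for Foxa3.
Foxa1: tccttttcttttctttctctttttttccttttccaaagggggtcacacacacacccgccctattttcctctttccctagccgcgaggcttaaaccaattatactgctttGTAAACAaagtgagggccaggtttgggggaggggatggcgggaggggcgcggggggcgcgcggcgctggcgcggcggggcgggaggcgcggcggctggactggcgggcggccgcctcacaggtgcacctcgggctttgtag
Foxa2: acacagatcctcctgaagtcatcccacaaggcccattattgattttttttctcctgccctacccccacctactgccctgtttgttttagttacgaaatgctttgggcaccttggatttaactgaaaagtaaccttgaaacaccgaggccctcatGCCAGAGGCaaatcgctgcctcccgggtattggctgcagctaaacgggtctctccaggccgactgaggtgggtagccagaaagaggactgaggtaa
Foxa3: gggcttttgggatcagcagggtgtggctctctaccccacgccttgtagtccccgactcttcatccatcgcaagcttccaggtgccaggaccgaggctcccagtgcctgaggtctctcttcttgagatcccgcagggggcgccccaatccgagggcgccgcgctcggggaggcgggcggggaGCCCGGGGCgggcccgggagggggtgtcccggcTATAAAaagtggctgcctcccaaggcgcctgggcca

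The motifs searched, on both strands, were the forkhead core TGTTTAC and its form TGTTTGC, the AP-2 motif GCCNNNGGC, the GATA motif as AGATAA and as TGATAA, and the TATA box TATAAA. No matches overlapped in these windows. The Foxa1 window held the forkhead core once, on the opposite strand, with its outer end 141 bases before the start, and no other searched motif. Of all 32851 RefSeq windows of this length, 3.17% held TGTTTAC. The printed Foxa2 window held one AP-2 match, 96 bases before the start. The other Foxa2 windows held one AP-2 match in one case, and one AGATAA and one TATAAA in the other. The Foxa3 window held an AP-2 match 69 bases and a TATAAA 36 bases before the start. Matches to GCCNNNGGC occurred in 13.7% of all windows, to AGATAA in 9.99% and to TATAAA in 12.4%. A match describes the letters and is not a measured binding site.

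Foxa1 was a strong signal in 8-cell embryos and lay in the dim part of the arrays in blastocysts. The 8-cell arrays read 7604, 7942, 9453 and 9108, and the blastocyst arrays 29.7, 2.22, 28.6 and 22.9. The stages did not overlap, and blastocyst replicate 2 stood below the other blastocyst arrays. On the 8-cell arrays Foxa1 ranked between percentiles 97.4 and 98.1 of all probe sets, and on the blastocyst arrays between 6.74 and 40.5.

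The mean signal of Foxa1 went from 8527 ± 892 to 20.9 ± 12.8, a log2 difference of -7.94 (SE 0.32), or 245-fold on this scale. Only 1 of the 4 blastocyst arrays was above the filter level, and the size depends on the added 16. It was -9.03 with 1 added and -6.67 with 64 added.

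Foxa2 went the other way, at lower signals. The 8-cell arrays read 3.20, 51.3, 7.50 and 20.8, and the blastocyst arrays 418, 241, 166 and 223. All blastocyst arrays lay above all 8-cell arrays, of which replicate 2 was the only one above the filter level. The mean went from 20.7 ± 21.7 to 262 ± 109, a log2 difference of 3.02 (SE 0.48), or 8.11-fold. With 1 added it was 4.13 and with 64 added 1.92. The blastocyst signals of Foxa2 ranked between percentiles 66.3 and 76.3 of the array, so they were in the upper middle of the probe sets and not among the brightest.

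Foxa3 was under the filter level on all 8 arrays. The 8-cell arrays read 4.10, 1.30, 25.7 and 1.00, and the blastocyst arrays 12.3, 23.5, 13.4 and 14.5. The stages overlapped, because 8-cell replicate 3 was above every blastocyst array. The means were 8.03 ± 11.9 and 15.9 ± 5.10, and the log2 difference was 0.51 (SE 0.32). The family thus held opposite differences in Foxa1 and Foxa2 and, for Foxa3, no signal above the dim part of the arrays at either stage. Foxa1 and Foxa2 passed the filter on dim genes, each through the stage in which it is high. Over all 13276 tested genes, 71.7% were called (limma, Benjamini-Hochberg adjusted p under 0.05) and 66.8% had stages that did not overlap, and nothing is read from the members' own non-overlap.

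**Figure D1:**
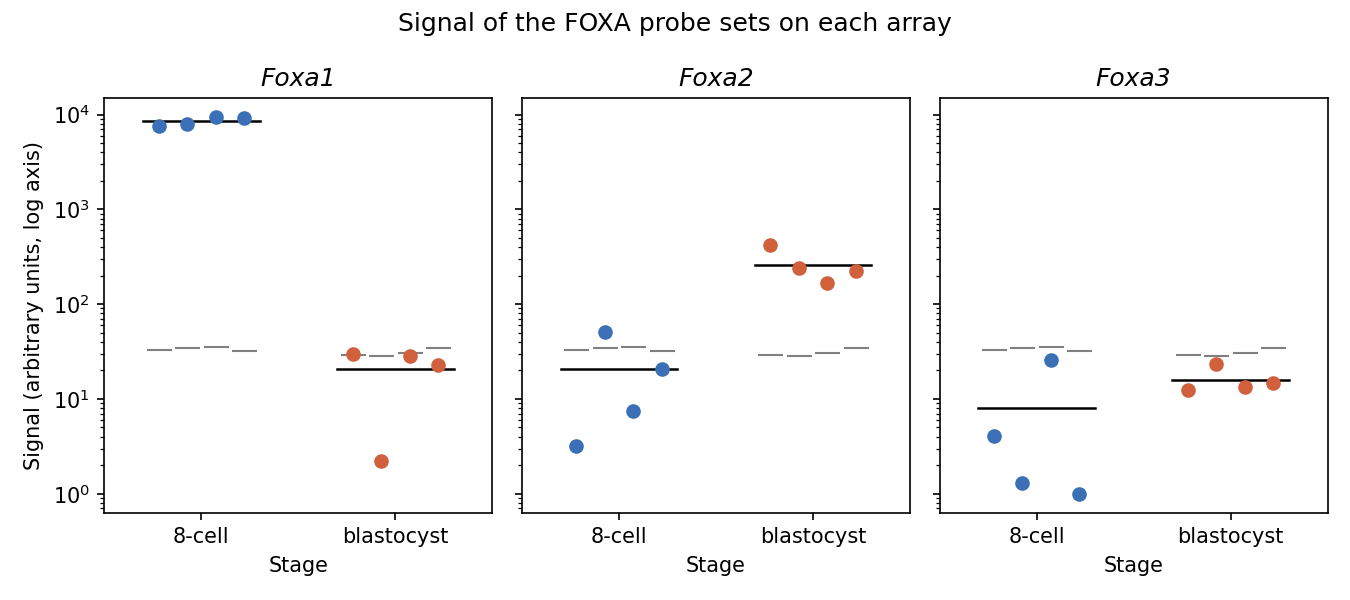
Signal of the Foxa1, Foxa2 and Foxa3 probe sets (log axis, arbitrary units) on the 4 8-cell and 4 blastocyst arrays; points are arrays, black lines stage means, and grey dashes each array's 40th percentile. Foxa1 sits at 7604 to 9453 in 8-cell embryos and at 2.22 to 29.7 in blastocysts, Foxa2 reaches 166 to 418 in blastocysts, and Foxa3 stays under the dashes on all arrays.

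The members also varied unequally among replicates, and the SE of each stage difference comes from the SD at both stages. The log2 SD was larger at the dim stage, at 0.63 for Foxa1 in blastocysts and 0.80 for Foxa2 in 8-cell embryos. The 1000 probe sets nearest in level there had median SDs of 0.47 and 0.54. Foxa1 in 8-cell embryos had a coefficient of variation of 10.5%, and its SD on the log2 scale (0.15) was close to the median (0.13) of the 1000 probe sets nearest to it in level at that stage. Foxa2 in blastocysts had a coefficient of variation of 41.7%. Its log2 SD of 0.53 compared with a median of 0.23 for the 1000 probe sets of like level, and 96.3% of these varied less. This spread rested on replicate 1: without it the SD was 0.26, and 60.7% of probe sets of like level varied less over the same arrays. Among the blastocyst arrays the widest gap was between replicate 1 (418) and replicate 3 (166), a ratio of 2.52.

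The arrays of the stages differed in RNA measures too. On the log2 scale the 3′ minus 5′ difference of the Actb control probe sets was 2.42 ± 0.19 on 8-cell arrays against 0.82 ± 0.11 on blastocyst arrays, and that of Gapdh 2.32 ± 0.26 against 1.36 ± 0.11 (SD, n = 4 each). This measure and the stage cannot be told apart in these arrays.

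In blastocysts Foxa2 was highest on the array on which most primitive endoderm markers were highest. The primitive endoderm is the inner layer facing the cavity, and visceral endoderm arises from it. The 8 markers summed to 43330 on blastocyst replicate 1, 37729 on replicate 2, 36992 on replicate 4 and 33932 on replicate 3, with Dab2 as its largest part (18954 on replicate 1). Foxa2 had the same order, but only 2 of the 8 markers had it singly, and 3 of the 8 were lowest on replicate 3. Of the 8 markers, 6 were highest on replicate 1, against 23.1% of the other tested genes. This comparison was made after the values were seen. Sox7, an endoderm factor of the SOX family, read 1004 there and 373 to 581 on the other blastocyst arrays. Sparc, a matrix protein of parietal endoderm, read 8396 and 4193 to 5459. The exceptions were Sox17 and Gata6, both lowest on that array (2890 against 3478 to 3583, and 3819 against 3893 to 4582).

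The visceral endoderm receptor genes Cubn and Amn and some genes of NODAL signalling, named after their values were seen, were also highest on replicate 1. Cubn, the endocytic receptor cubilin, read 5348 on replicate 1 and 2283 to 2898 on the others, and its partner Amn, amnionless, 1200 and 319 to 623. In the lists described below, 6 of 12 tested liver and visceral endoderm targets were highest there, and 6 of 17 endoderm factors. The share over the other tested genes was 23.1%. Both lists overlap the genes above and below, so their counts are not separate results. They share Gata4, Gata6, Sox7, Sox17 and Dab2 with the primitive endoderm markers and include Cubn, Amn, Nodal, Lefty1 and Lefty2. Apoa1 and Hnf4a were highest on replicate 2 (3407 and 378), and Vil1 and Otx2 were lowest on replicate 1 (7.20 and 48.1). Nodal, a TGF-beta family ligand known to act upstream of Foxa2 in the embryo, read 367 on replicate 1, 245 on replicate 2, 172 on replicate 4 and 113 on replicate 3. Its inhibitors Lefty1 and Lefty2 read 374 and 287 on replicate 1, and 110 to 181 and 93.0 to 175 on the others. Others of the pathway went otherwise. The coreceptor gene Tdgf1 (3563), the signal transducer gene Smad2 (1514) and Foxh1, the SMAD partner that carries NODAL signals to genes such as Foxa2 (139), were lowest on replicate 1, and Smad4 was highest on replicate 4. Trophectoderm markers were also highest on replicate 1 in sum (78623), by a smaller margin over the lowest array (70739). These are 4 arrays, so the shared order is a description, and what the arrays differ in was not tested.

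**Figure D2:**
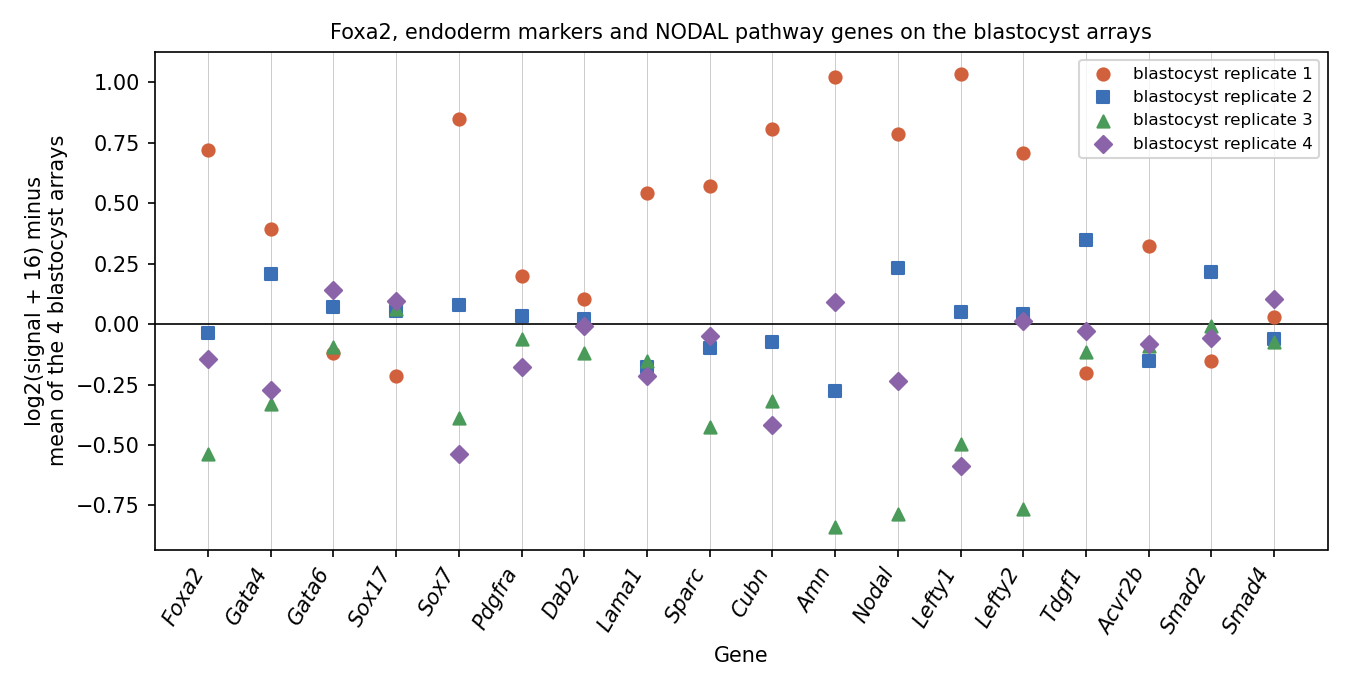
Each point is log2(signal + 16) of a gene on 1 blastocyst array minus the mean of the 4 blastocyst arrays, for Foxa2, the 8 primitive endoderm markers, Cubn, Amn and genes of NODAL signalling; colours and shapes mark the replicates. Replicate 1 is highest for Foxa2, Sox7, Sparc, Cubn, Amn, Nodal, Lefty1 and Lefty2, and lowest for Sox17, Gata6, Tdgf1 and Smad2.

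The genes most like each member were found by the root mean square distance between gene-centred log2 values over the 8 arrays. For Foxa1 these were Tnfsf13b, a cytokine gene, at 0.66 log2 units, Exoc3l2 at 0.69 and Bex6 at 0.78. For Foxa2 they were Sirt2, a deacetylase gene, at 0.28, Fbxw7, a ubiquitin ligase subunit gene, at 0.36, and Cald1, encoding the actin-binding protein caldesmon, at 0.36. Sirt2 went from 72.2 ± 52.0 to 740 ± 170 and Fbxw7 from 62.1 ± 18.7 to 628 ± 111. Over arrays of only 2 stages, this measure depends largely on the size of the stage difference.

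Among the other forkhead genes, the changes went both ways. Of 41 listed genes 34 had a probe set with a single symbol, and 26 passed the filter. By limma the blastocyst level was higher for 8 and lower for 12, and 6 missed the threshold, so 76.9% were called, near the 71.7% of all tested genes. In the background 37.5% of genes were higher and 34.2% lower. The median difference was -0.32 against 0.02 for all tested genes. With the arrays scaled to their spike-in controls, which shifts all genes alike, 9 were higher and 7 lower, and the median was 0.03 against 0.37 for all genes.

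Foxq1, a forkhead gene of epithelia, rose most, from 29.0 ± 14.2 to 541 ± 106 (log2 difference 3.67, SE 0.25, limma adjusted p = 9.75e-07), and its other probe set rose by 3.25. It was above the filter level on only 1 of the 4 8-cell arrays, and the size ran from 2.70 to 4.31 over the alternatives. Foxd3, a factor of pluripotent epiblast and neural crest, rose from 44.0 ± 24.8 to 229 ± 53.6 (2.10, SE 0.31, limma adjusted p = 0.000190). The brightest probe set of Foxk1 rose by 1.80 (SE 0.14), but its other probe sets gave 0.72 and -0.35 and did not pass (limma adjusted p = 0.0554 and 0.106). Foxo4, a factor held back by insulin signalling, rose by 0.92 (SE 0.20), but its dimmer probe set gave 0.19 (limma adjusted p = 0.543). Foxh1 rose from 84.1 ± 23.5 to 161 ± 22.3 (0.84, SE 0.18, limma adjusted p = 0.00209).

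The largest falls were those of Foxc2 and Foxd1, both known from mesoderm-derived tissue. Foxc2 went from 188 ± 36.4 to 9.53 ± 6.14 (-3.01, SE 0.20, limma adjusted p = 8.41e-07) and Foxd1 from 123 ± 7.59 to 15.6 ± 11.9 (-2.23, SE 0.26). Both were under the filter level on all blastocyst arrays, so their sizes depend on the added 16. Foxf1 (-1.64, SE 0.30) and Foxc1 (-1.42, SE 0.27) also fell. Foxo3, a factor known for holding oocytes in reserve, was bright at both stages (1993 ± 278 and 1430 ± 159). Its brightest probe set fell by 0.47 (SE 0.14, limma adjusted p = 0.0136), but not with spike-in scaling (-0.12, adjusted p = 0.650). Its other probe sets fell more on the deposited scale (-0.88 and -1.12, limma adjusted p = 0.000434 and 0.00227). Of 20 called forkhead genes 13 had another probe set above the filter, and for 1, Foxk2, one of these was called in the opposite direction. Foxk2, named after its values were seen, gave -1.31 on the brightest probe set and 1.51 on another. Of the genes that missed the threshold, Foxj3, also named after its values were seen, gave -0.14 on its brightest probe set. Its other probe sets gave -1.77 and -2.68 (limma adjusted p = 3.46e-05 and 3.71e-06).

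**Figure D3:**
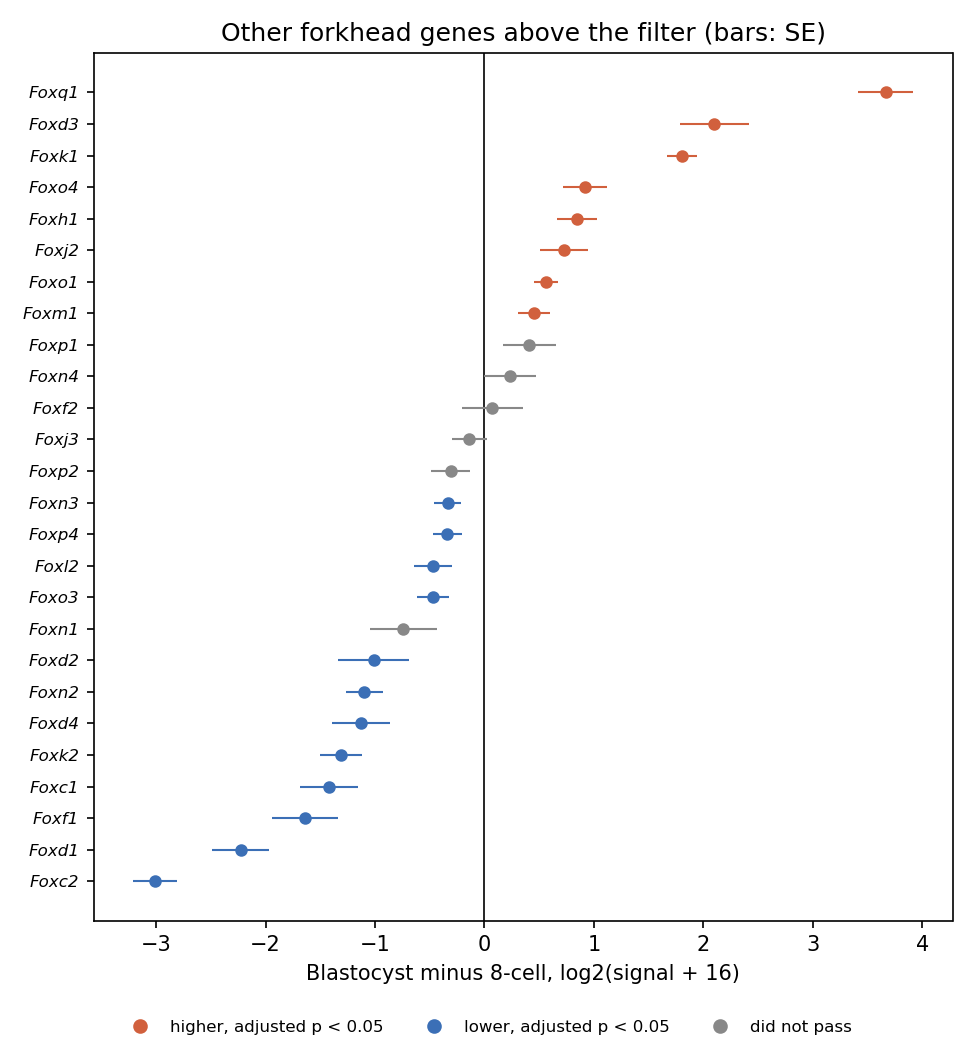
Blastocyst minus 8-cell difference of log2(signal + 16) for the 26 other forkhead genes above the filter, with SE bars; colour gives the limma call. The differences run from -3.01 (Foxc2) to 3.67 (Foxq1), with 8 genes higher and 12 lower.

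Factors and signals that act with FOXA proteins in endoderm were split between the directions. Of 23 listed genes 17 were tested: 8 rose, 6 fell and 3 missed the threshold. This was 82.4% called, against 71.7% of all tested genes, with a median of 0.49 against 0.02. With spike-in scaling 9 rose and 3 fell, while of all tested genes 5647 rose and 2806 fell. The median was then 0.84 against 0.37 for all genes. Of 14 called endoderm factors 9 had another probe set above the filter, and for 1, Smad4, one of these was called in the opposite direction. Smad4 gave -0.34 on the brightest probe set and 0.65 on another (limma adjusted p = 0.00185). Sox17 rose from 10.6 ± 4.48 to 3363 ± 319 (7.0, SE 0.15, limma adjusted p = 3.38e-09). It was under the filter level on all 8-cell arrays, and the size ran from 5.52 to 8.28 over 19 alternatives. Its other probe set gave 4.77. Without probe sets whose IDs mark shared or variant transcripts Sox17 had no value. Eomes, a T-box factor of trophectoderm and later endoderm, rose by 5.17 (SE 0.18) and Sox7 rose by 3.47 (SE 0.28). Hnf4a, a nuclear receptor of visceral endoderm and liver, rose from 19.7 ± 9.09 to 311 ± 64 on its brightest probe set (3.21, SE 0.21), but its other probe sets gave 0.53 (adjusted p = 0.0146) and 0.09. The brightest probe set was under the filter level on all 8-cell arrays. Without probe sets whose IDs mark shared or variant transcripts Hnf4a gave 0.09 (limma adjusted p = 0.825).

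Mixl1, a homeobox gene of primitive streak mesendoderm, fell from 1010 ± 156 to 9.69 ± 6.91 (-5.34, SE 0.20, limma adjusted p = 3.38e-08). It was under the filter level on all blastocyst arrays, and the size ran from -6.75 to -3.86 over the alternatives. Gsc, another homeobox gene of the streak, fell by 1.62 (SE 0.25) and Hhex, of anterior endoderm, by 0.99 (SE 0.20). Gata4 and Gata6, zinc finger factors that bind beside FOXA proteins at liver enhancers, fell by 0.95 (SE 0.24, limma adjusted p = 0.00540) and 0.55 (SE 0.14, adjusted p = 0.00468). With spike-in scaling neither passed (adjusted p = 0.0800 and 0.502). Nodal was at 125 ± 28.1 and 224 ± 109 (0.68, SE 0.31, limma adjusted p = 0.0744), with adjusted p between 0.00339 and 0.185 over 20 alternative settings. Otx2, of anterior visceral endoderm, was at 108 ± 21.1 and 97.9 ± 55.2 (limma adjusted p = 0.532), and Cer1, an inhibitor secreted by the same tissue, was under the filter level on all arrays (11.9 ± 14.1 and 12.6 ± 9.84).

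Many liver and visceral endoderm genes known as FOXA targets were dim. Of 25 with a probe set, 13 were under the filter, while 13276 of all 18193 genes passed it. Of the 12 tested 6 rose, 2 fell and 4 missed the threshold. This was 66.7% called, against 71.7% of all tested genes, with a median of 0.67 against 0.02. Without probe sets whose IDs mark shared or variant transcripts 3 rose and 1 fell among 9 tested, with a median of 0.11. Apoa1, the main protein of high-density lipoprotein, rose from 24.9 ± 17.9 to 2393 ± 689 (5.94, SE 0.30, limma adjusted p = 1.57e-07) and Apoe from 285 ± 72.4 to 6721 ± 170 (4.52, SE 0.18). Apoa1 was above the filter level on only 1 of the 4 8-cell arrays, and its size ran from 4.77 to 6.73 over the alternatives. Cubn rose by 4.26 (SE 0.25) and its adaptor Dab2 by 2.57 (SE 0.14). Vil1, encoding the brush border protein villin, fell by 1.35 (SE 0.33). Apom fell by 1.21 (SE 0.25), although its other probe set gave -0.32 and did not pass (limma adjusted p = 0.211). The classical targets Ttr, encoding transthyretin, and Afp, encoding alpha-fetoprotein, were not among the tested genes. Ttr was under the filter level on all arrays (10.4 ± 8.40 and 12 ± 6.67), and Afp was above it on 2 of the 4 8-cell arrays and no blastocyst array (32.3 ± 17.3 and 1.95 ± 1.34).

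**Figure D4:**
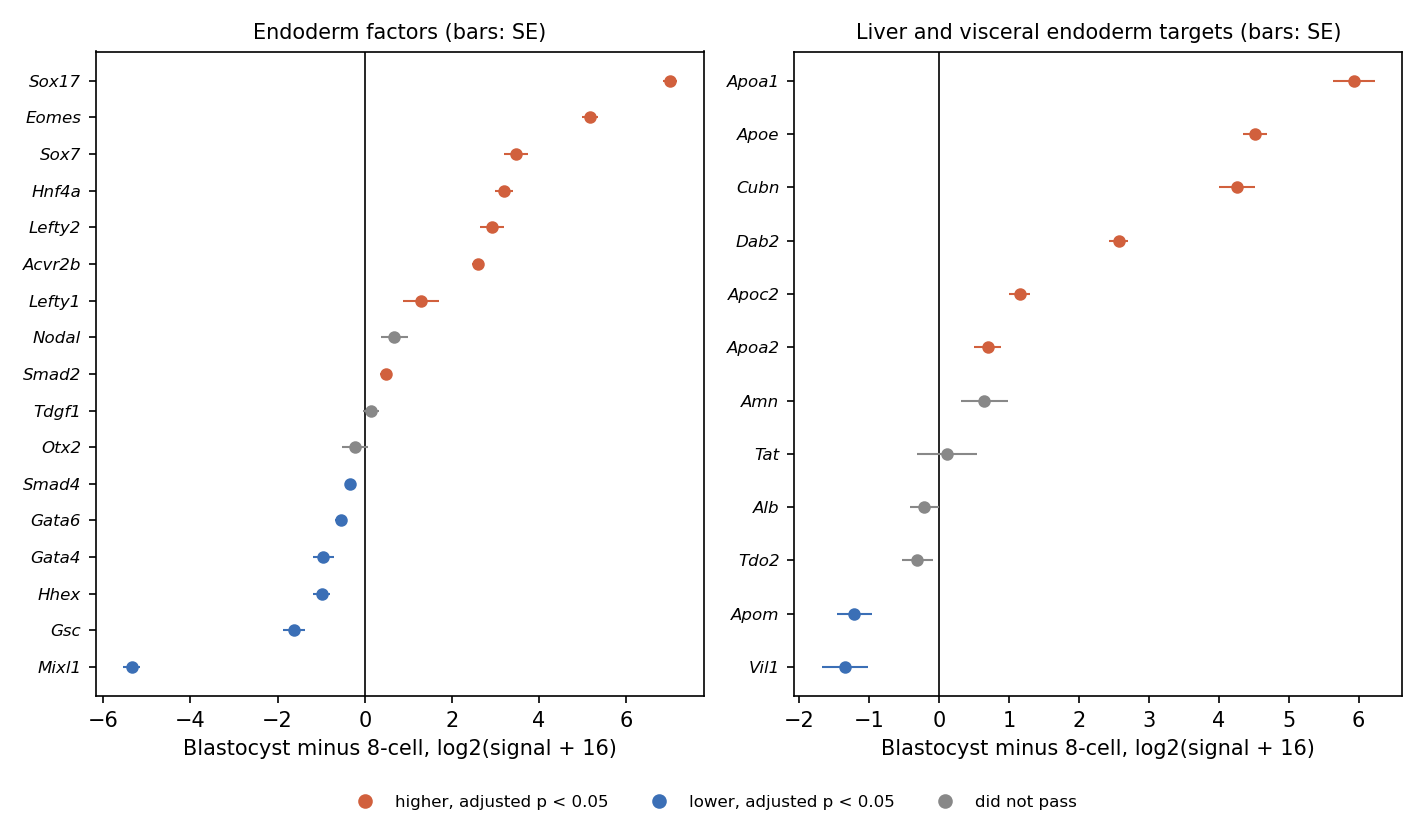
Blastocyst minus 8-cell difference of log2(signal + 16), with SE bars, for the tested endoderm factors (left, 17 genes) and the tested liver and visceral endoderm targets (right, 12 genes); colour gives the limma call. Sox17 lies at 7.0, Apoa1 at 5.94 and Mixl1 at -5.34, and each was dim at one stage.

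Partners of FOXA1 on chromatin in hormone-responsive epithelia changed in both directions. Of 22 listed genes 18 were tested: 5 rose, 10 fell and 3 missed the threshold. This was 83.3% called, against 71.7% of all tested genes, with a median of -0.69 against 0.02. With spike-in scaling 5 were higher and 6 lower, with a median of -0.34 against 0.37 for all genes. Rarg, a retinoic acid receptor gene, fell from 2298 ± 475 to 199 ± 57.3 (-3.44, SE 0.21, limma adjusted p = 5.16e-07) on its brightest probe set. Its other probe set gave a smaller fall (-1.12, limma adjusted p = 0.00280). Smarca4, the ATPase of the SWI/SNF remodelling complex, fell by 1.37 (SE 0.13) and Nr5a2, an orphan nuclear receptor of cleavage embryos and liver, by 1.36 (SE 0.14). Tfap2c, the AP-2 factor in the title of the series, fell by 1.28 (SE 0.14). Its relative Tfap2a rose by 4.67 (SE 0.22), Gata3 by 5.30 (SE 0.17) and Xbp1, a factor of secretory cells, by 5.14 (SE 0.28). The other probe sets of Tfap2a gave 1.35 and 5.46, and those of Xbp1 2.69, 5.03 and 5.44. For Creb1 the brightest probe set gave a rise of 0.57 (SE 0.14), another gave 1.58, and the remaining 3 lay between -0.12 and 0.02. Esr1, the oestrogen receptor gene and a main partner of FOXA1 in breast, named after its values were seen, was under the filter level on all arrays.

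Genes of the Groucho-type TLE family, named for its co-repressors, some of which bind FOXA proteins, changed in both directions. Of 5 tested genes 2 rose, 2 fell and 1 missed the threshold. This was 80% called, near the 71.7% of all tested genes, with a median of -0.08 against 0.02. Tle4 fell from 7886 ± 626 to 3195 ± 472 (-1.31, SE 0.14, limma adjusted p = 1.97e-05), although its other probe sets, at -0.65 and -0.15, did not pass. Tle6 fell by 0.94 (SE 0.20, adjusted p = 0.0769 with spike-in scaling). Tle5 rose by 1.18 (SE 0.18). The brightest probe set of Tle3 rose by 0.52 (SE 0.15). Its other probe sets gave -0.65 (called lower), 0.69 (called higher, limma adjusted p = 0.0470) and 0.17 (not called). Tle3 passed in 18 of 20 alternatives, but not with quantile scaling or when its probe sets were averaged (limma adjusted p between 0.00306 and 0.416 over the 20). With spike-in scaling 2 TLE genes were higher and 1 was lower, and the median was 0.28 against 0.37 for all genes. With quantile scaling 1 was higher and 2 were lower.

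**Figure D5:**
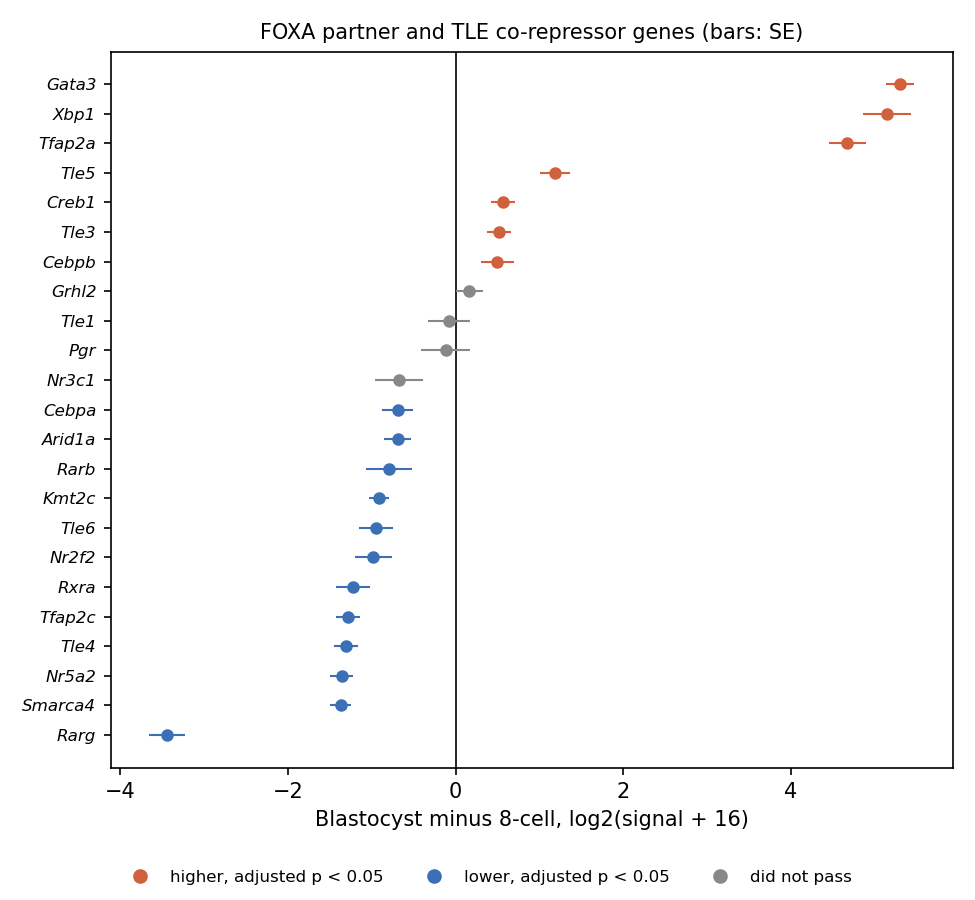
Blastocyst minus 8-cell difference of log2(signal + 16), with SE bars, for the tested FOXA1 partner genes and TLE co-repressor genes; colour gives the limma call. On the brightest probe set of each gene, Gata3 (5.30), Xbp1 (5.14) and Tfap2a (4.67) rise most and Rarg (-3.44) falls most.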

How the data were processed

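The authors deposited a single value table of linear signal intensity for 45101 probe sets on 8 arrays. Per the labels' protocols, RNA from whole embryos was amplified with a small-sample assay and labelled with biotin; the summary software was not given in the sources used here. Each deposited array proved to be scaled to a mean of 500 after removal of the outer 2%. Samples were grouped by stage from their titles. Values became log2(signal + 16). The 64 control probe sets were left out, and symbols came from the platform annotation: 34945 probe sets had 1 symbol, 932 several and 9160 were not listed. A gene took its brightest probe set by mean log2 value, and 13276 genes above the 40th percentile on at least 4 arrays were tested with limma (lmFit, eBayes; threshold 0.05 after Benjamini-Hochberg adjustment). Adjusted p-values of further probe sets come from a like fit over all probe sets above the filter. Replicate numbers did not pair the arrays (correlations of same-numbered deviations -0.04 to -0.02).

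The members and the 5 gene lists were chosen with earlier results of these data known. Named genes are the members, the 4 highest and 4 lowest called genes of each list, 15 fixed genes (1 is not reported here) the 3 genes most like each member above the filter and cell type markers a result turns on; others are said to be named after their values were seen. The method was tested on simulated data. R 4.3.3, limma 3.58.1, the data.table package (1.17.8), Python 3.11.15 and matplotlib 3.10.9 were used. Alternatives were quantile, median or spike-in scaling, an added 1 or 64, a replicate block, array weights, robust estimation with an intensity trend, no filter or the 60th percentile, other choices of probe sets, and leaving out each array.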

Additional observations from a re-analysis of the deposited data

Results flagged for a closer look

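Groups of 4 arrays were checked for one array far from the rest, for the members and named genes, on the log2 scale; 3 of 102 groups had one, and chance gives about 1 in 20. Sox17 in blastocysts was low on replicate 1 (2890, the others 3478 to 3583), the array on which Foxa2 was highest. Nr5a2 in blastocysts was low on replicate 4 (2640, the others 3483 to 3590). Cer1 in 8-cell embryos was high on replicate 3 (32.9, the others 3.40 to 6.10), below the 40th percentile of that array.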

How the results depend on the processing

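The signs of the Foxa1 and Foxa2 differences are those the genes were chosen for, so they show no stability. Without the probe sets of shared or variant transcripts Foxa3 had no value. With 1 added the differences of Foxa1, Foxa2 and Foxa3 were -9.03, 4.13 and 1.72, and with 64 added they were -6.67, 1.92 and 0.16. Leaving out 1 array gave -8.07 to -7.63 for Foxa1, 2.77 to 3.37 for Foxa2 and 0.38 to 0.81 for Foxa3. With spike-in scaling, which moved the median of all genes from 0.02 to 0.37, 5647 genes were higher and 2806 lower (4978 and 4541 on the deposited scale), and the lower counts were 7 for other forkhead genes, 3 for endoderm factors, 1 for TLE genes and 6 for FOXA partners. TLE genes called higher were 1 with quantile scaling, with the mean of probe sets and without probe sets of shared or variant transcripts. Of the liver and visceral endoderm targets 1 was lower with the filter at the 60th percentile, and 3 were higher and 1 lower without probe sets of shared or variant transcripts. The causes were not tested. With the replicate number as a block, 4862 genes were higher and 4414 lower; this balanced block cannot change a difference, only its error. Leaving out replicate 1, chosen after seeing the data, brought the log2 SD of Foxa2 among blastocyst arrays from 0.53 to 0.26, and leaving out another array gave 0.47 to 0.64. The number of arrays, and signals near the dim end of the arrays, limit the sizes given for Foxa1 in blastocysts, Foxa2 in 8-cell embryos and Foxa3.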

Other observations

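The genes next to the FOXA genes in the RefSeq annotation (GRCm38.p6), 2 protein-coding genes on each side, were looked up after the values of the members had been seen. Beside Foxa1, Mipol1 was under the 40th percentile on all 8-cell arrays and above it on 3 blastocyst arrays (3.68 ± 2.81 and 58.5 ± 17.1), opposite in order to Foxa1. Ttc6, on the other side, fell from 52.1 ± 31.8 to 15.1 ± 15 (-1.16, SE 0.38, limma adjusted p = 0.0208), and Prps1l3 fell by 0.99 (SE 0.14). Beside Foxa2, Nkx2-2 and Pax1 were under the filter, and Sstr4 (0.51, limma adjusted p = 0.303) and Thbd (0.06, adjusted p = 0.706) did not pass. Beside Foxa3, which was dim on all arrays, Mypop rose by 2.14 (SE 0.15), Irf2bp1 by 1.23 (SE 0.16) and Sympk by 0.37 (SE 0.14), and Rsph6a was under the filter.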
